A study of Mus musculus with 24 samples.

Results

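Gata4, Gata6, Sox17, Sox7, Foxa1, Foxa2 and Hnf4a are 7 transcription factor genes of the endoderm, described here in D3, a long-established mouse embryonic stem cell line. They were taken by symbol, each had 1 probe set annotated to that symbol alone, and all 7 of the 7 were among the 19938 genes tested. In 1 line Prmt1, which encodes an arginine methyltransferase, was reduced by knockdown (siPRMT1), and the control line received a scrambled sequence (siSCR). Both lines were sampled in 4 states with 3 arrays each, which gave 8 groups and 24 arrays. The states were undifferentiated cells, embryoid bodies after 4 days of aggregation without the cytokine LIF, and embryoid bodies of the same span treated for 12 h with the vehicle DMSO or with all-trans retinoic acid (ATRA) at 5 micromol. All groups share the D3 background, and the labels say that cells had been passaged repeatedly on gelatin to remove feeder cells. The sources used here do not give whether each line was 1 clone or a pool. The arrays carry biological replicate numbers, but nothing says that they came from separate cultures, so the p-values measure the spread between these arrays.

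Endoderm arises more than once in the mouse. Primitive endoderm separates from the epiblast in the blastocyst and forms the visceral and parietal layers of the yolk sac, while definitive endoderm leaves the primitive streak at gastrulation and forms the gut. GATA6 acts at the head of the primitive endoderm programme, with GATA4, SOX17 and SOX7 following it. FOXA1 and FOXA2 are forkhead proteins that open chromatin at endoderm genes, and HNF4A is a nuclear receptor that drives the genes for apolipoproteins and other secreted carriers in visceral endoderm and liver. In embryoid bodies the outer layer takes on primitive endoderm character. None of the genes is exclusive to endoderm, since GATA4 and GATA6 also act in the heart and SOX17 and SOX7 in blood vessel endothelium.

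Promoter sequence was used for 3 of the members. The RefSeq table (build GRCm38.p6) gave 1 start for Foxa1, 3 for Foxa2 and 2 for Hnf4a, and no window was used for Gata4, Gata6, Sox17 and Sox7. Member windows on 1 chromosome were left out, so a gene without a window here may still have an entry. The sequences are shown because Foxa1 stood apart from Foxa2 and Hnf4a in these data and because some of the windows hold letters of the members' motifs. Each run is the 250 bases before the start on the gene's own strand, 5′ to 3′, with a motif match in capitals.

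Foxa1, chr12:57546112-57546361, minus strand: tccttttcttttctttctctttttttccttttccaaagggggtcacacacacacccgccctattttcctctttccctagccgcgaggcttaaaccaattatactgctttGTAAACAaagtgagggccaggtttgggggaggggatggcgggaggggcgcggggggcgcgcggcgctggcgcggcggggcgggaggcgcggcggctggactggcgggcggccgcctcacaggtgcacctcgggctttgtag

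Foxa2, start 3, chr2:148045465-148045714, minus strand: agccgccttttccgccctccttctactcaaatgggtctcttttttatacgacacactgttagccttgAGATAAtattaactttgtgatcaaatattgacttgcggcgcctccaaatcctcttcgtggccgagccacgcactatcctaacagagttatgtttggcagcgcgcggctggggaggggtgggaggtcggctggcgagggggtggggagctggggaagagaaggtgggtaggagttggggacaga

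Hnf4a, start 1, chr2:163506607-163506856, plus strand: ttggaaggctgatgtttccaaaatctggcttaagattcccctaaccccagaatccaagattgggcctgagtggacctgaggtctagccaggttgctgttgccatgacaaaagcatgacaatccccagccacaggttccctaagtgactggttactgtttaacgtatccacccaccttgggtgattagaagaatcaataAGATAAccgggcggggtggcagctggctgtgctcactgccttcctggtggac

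Hnf4a, start 2, chr2:163546905-163547154, plus strand: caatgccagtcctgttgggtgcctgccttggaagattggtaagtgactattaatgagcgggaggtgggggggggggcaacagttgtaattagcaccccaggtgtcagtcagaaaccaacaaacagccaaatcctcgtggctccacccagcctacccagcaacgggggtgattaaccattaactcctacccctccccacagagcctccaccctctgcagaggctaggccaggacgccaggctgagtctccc

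Motifs were searched on both strands of the window from 250 bases before to 50 bases after each start. A forkhead match (TGTTTAC or TGTTTGC) was found in the Foxa1 window, at -141 and on the opposite strand. On the gene's own strand, as printed, it reads GTAAACA. In the whole set of 32817 windows, 8.47% held one. A GATA match (AGATAA or TGATAA) was found at -183 from start 3 of Foxa2 and at -52 from start 1 of Hnf4a, against 18.6% of all windows. No window of the 3 genes held the SOX letters (ACAATAG or ACAATGG, in 5.95% of windows) or the nuclear receptor site AGGTCA (16.3%). No 2 of these motifs overlap in the windows shown, and a match is a description of letters only.

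Deposited values are log2 expression per probe set, and probe sets differ in brightness, so levels are compared only within a gene. A gene was called where its limma p, adjusted by Benjamini-Hochberg over all genes of the comparison, was under 0.05. Prmt1 was left at 38.6% of the control in undifferentiated cells, 64.6% at day 4, 46.2% with DMSO and 36.7% with ATRA. The 6 siSCR arrays of DMSO and ATRA stood apart from the other 18 on the first principal component (50.1 to 61.2 against -26.8 to -9.44). They also had a narrower spread of values (SD 1.98 to 2.07 against 2.15 to 2.27), and the labels name no batch. The knockdown comparisons in the treated embryoid bodies and the comparison of siSCR vehicle with day 4 cross this border, so such a difference between arrays and the biology cannot be told apart there. The knockdown in undifferentiated cells and at day 4, embryoid body formation, and the ATRA responses within a line do not cross it.

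Of the 7 factors, 6 were highest in the embryoid bodies of the knockdown line. For Gata4, Gata6, Sox17, Sox7, Foxa2 and Hnf4a, each of the 9 siPRMT1 embryoid body arrays lay above each of the other 15 arrays, a pattern that 3.92% of all genes tested had. Without the siSCR DMSO and ATRA arrays the same 6 factors lay above the remaining 9 arrays, against 5.77% of all genes. The gap between the lowest siPRMT1 embryoid body array and the highest of the other 15 was widest for Gata6 (11.85 against 11.20 log2) and narrowest for Hnf4a (10.28 against 10.20 log2). Foxa1 did not have the pattern, with 6.99 against 7.69 log2. Its probe set was the dimmest of the 7, at percentile 37.8 of the mean level among genes, where the others were at 53.5 to 91.5. How far it stood above background was not tested. RNA of whole cultures was measured, so more cells of a type and more RNA per cell cannot be told apart.

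**Figure D1:**
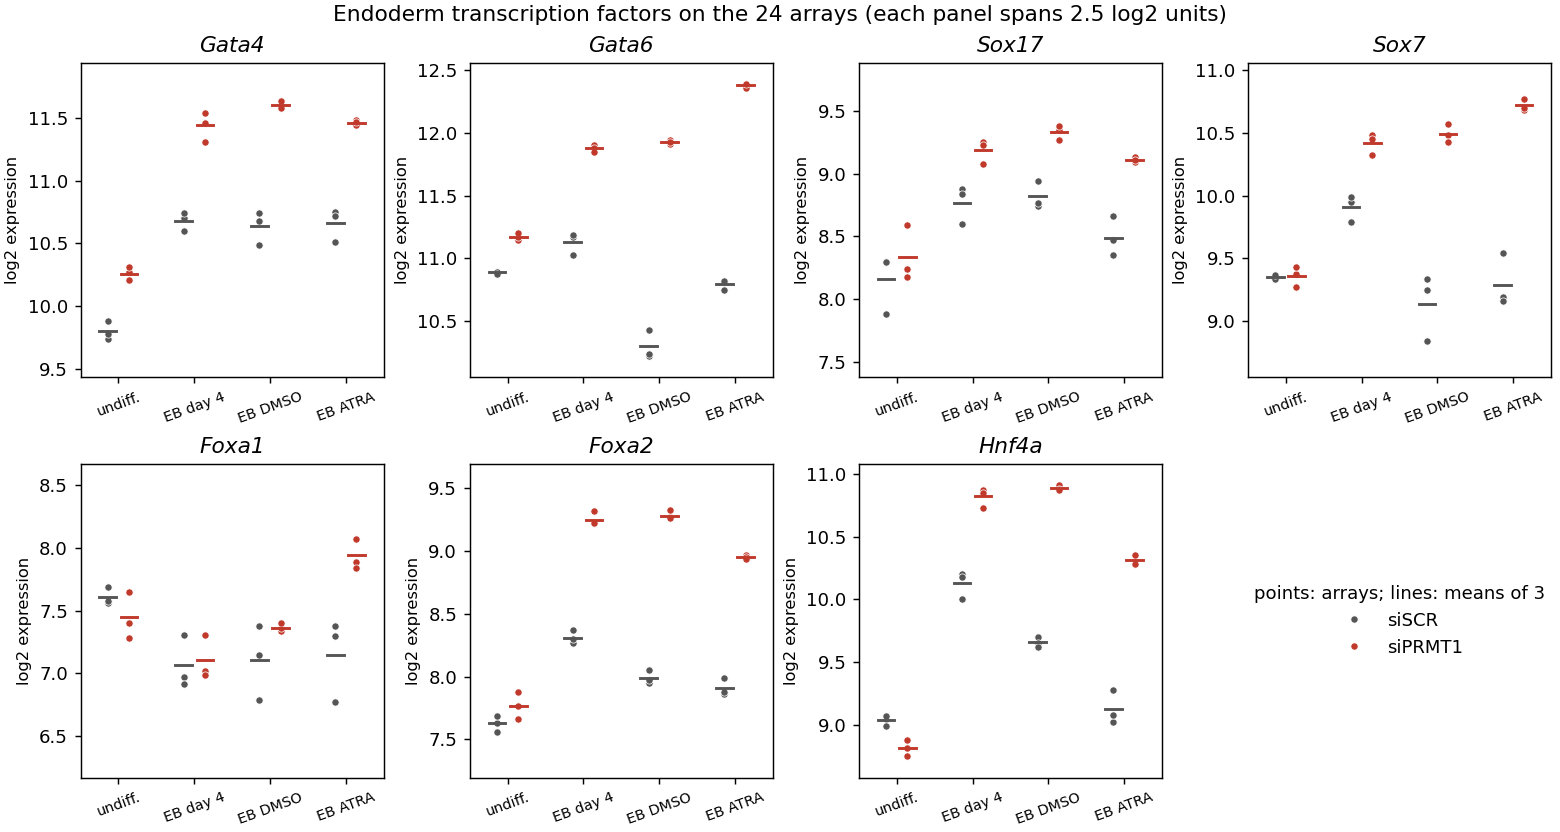
Log2 expression (vertical axis) of each factor on the 24 arrays, by state (horizontal axis) and line; points are arrays and short lines the means of 3. The siPRMT1 points of the 3 embryoid body states lie above all others in 6 panels, and in the Foxa1 panel only the siPRMT1 ATRA points, 7.84 to 8.07, stand above the rest.

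In undifferentiated cells the knockdown came with higher GATA factors and lower Hnf4a, and the differences were small. Gata4 was at 9.74, 9.78 and 9.88 log2 on the siSCR arrays and at 10.21, 10.27 and 10.31 on the siPRMT1 arrays. Gata6 was at 10.89, 10.89 and 10.88 against 11.15, 11.17 and 11.20 log2. In both genes all siPRMT1 arrays were above all siSCR arrays. Gata4 rose by 0.46 ± 0.074 on the log2 scale (SE, 1.37-fold; limma adjusted p = 0.000132) and Gata6 by 0.29 ± 0.055 (1.22-fold; limma adjusted p = 0.000659). Hnf4a was at 9.05, 8.99 and 9.07 in siSCR and 8.75, 8.82 and 8.88 in siPRMT1, lower on every knockdown array. It fell by 0.22 ± 0.067 on the log2 scale (limma adjusted p = 0.0254). That call was lost under 7 of 17 alternatives (adjusted p 0.000154 to 0.126), among them quantile normalization (0.106) and leaving out siSCR array 1 (0.0728) or 3 (0.0912) or siPRMT1 array 1 (0.114) or 2 (0.0617).

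Sox17, Sox7, Foxa1 and Foxa2 were not called in undifferentiated cells, and their arrays overlapped. Their log2 differences were 0.17 for Sox17, 0.01 for Sox7, -0.16 for Foxa1 and 0.14 for Foxa2. Foxa2 was called under 5 of 17 alternatives, with differences of 0.09 to 0.20 over all of them (adjusted p 0.00216 to 0.435). Sox17 was called higher under 1 of 17, array weights (0.35, limma adjusted p = 0.00383), with differences of 0.04 to 0.35 over all of them (0.00383 to 0.909). Counted together, 2 factors were higher, 1 was lower and 4 were not called. Of all genes 18.8% were called and 7.63% were called higher. The members' median was 0.14 log2 against 0.01 for all genes. The share of higher genes among those called was 40.6%, and 38.3 to 62.5% with other array scalings. In the same comparison 10 of 16 fibroblast and feeder markers were lower, against 11.2% of all genes called lower.

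In day 4 embryoid bodies 6 of the 7 factors were higher in siPRMT1. Foxa2 was at 8.27, 8.37 and 8.30 log2 in siSCR and 9.32, 9.22 and 9.22 in siPRMT1. Hnf4a was at 10.00, 10.20 and 10.18 against 10.87, 10.85 and 10.73. The lines did not overlap in either gene. Foxa2 rose by 0.94 ± 0.059 on the log2 scale (1.91-fold; limma adjusted p = 9.55e-10) and Hnf4a by 0.69 ± 0.067 (1.61-fold; 3.22e-07).

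Both GATA genes separated in the same way at day 4. Gata4 was at 10.60, 10.70 and 10.74 log2 in siSCR and at 11.46, 11.54 and 11.31 in siPRMT1. Gata6 was at 11.03, 11.17 and 11.19 against 11.90, 11.88 and 11.85. The pair of zinc finger genes rose by nearly equal amounts, 0.76 ± 0.074 for Gata4 (1.69-fold) and 0.75 ± 0.055 for Gata6 (1.68-fold), with limma adjusted p of 3.32e-07 and 7.21e-09.

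The SOXF genes moved less. Sox7 was at 9.79, 9.95 and 9.99 log2 in siSCR and 10.48, 10.45 and 10.32 in siPRMT1, and Sox17 at 8.60, 8.88 and 8.84 against 9.25, 9.23 and 9.08. Neither overlapped. Sox7 rose by 0.51 ± 0.11 (1.42-fold; limma adjusted p = 0.00174) and Sox17 by 0.41 ± 0.12 (1.33-fold; 0.0145). The Sox17 call was lost without siSCR array 1 (0.33, adjusted p = 0.081) or siPRMT1 array 1 (0.38, 0.0603) or 2 (0.39, 0.0558), over a range of 0.00182 to 0.081 among 17 alternatives. Foxa1, at 6.97, 7.31 and 6.92 in siSCR and 7.31, 7.02 and 6.99 in siPRMT1, overlapped and was not called (0.04 ± 0.15).

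Against these 6 of 7 factors, 18.4% of all genes were called at day 4 and 11.4% were called higher. The members' median difference was 0.69 log2 and that of all genes -0.02. Among called genes 61.9% were higher, and 50 to 82.9% with other scalings. The Prmt1 transcript itself was least reduced in this state. Of 16 fibroblast and feeder markers 7 were lower in siPRMT1, against 7.01% of all genes called lower.

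With DMSO or ATRA the estimates of the knockdown line stood farther above the control than at day 4, across the border between array sets described above. With DMSO this widening was called for Gata6, Sox7, Foxa2 and Hnf4a and not for Gata4, Sox17 and Foxa1. For ATRA against day 4 it was not tested. Gata6 was at 10.43, 10.22 and 10.24 log2 in siSCR with DMSO and 11.91, 11.94 and 11.93 in siPRMT1 with DMSO. With ATRA it was at 10.81, 10.82 and 10.75 against 12.39, 12.36 and 12.39. Those ATRA values were its highest in the series. Gata6 was 3.09-fold higher with DMSO (1.63 ± 0.055 log2; limma adjusted p = 3.36e-15) and its difference with ATRA was 1.58 ± 0.055 log2 (4.72e-15).

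Sox7, which had not differed detectably in undifferentiated cells, was the next largest. It was at 8.84, 9.25 and 9.34 log2 in siSCR with DMSO and 10.48, 10.43 and 10.57 in siPRMT1, and at 9.19, 9.16 and 9.54 against 10.77, 10.68 and 10.70 with ATRA. The lines were apart by 1.35 ± 0.11 log2 with DMSO (2.55-fold) and 1.42 ± 0.11 with ATRA (2.68-fold), with limma adjusted p of 6.29e-10 and 2.46e-10. Foxa2 was 1.29 ± 0.059 higher with DMSO and 1.05 ± 0.059 with ATRA, Hnf4a 1.23 ± 0.067 and 1.18 ± 0.067, and Gata4 0.96 ± 0.074 and 0.81 ± 0.074. Sox17 was 0.52 ± 0.12 higher with DMSO and 0.62 ± 0.12 with ATRA, and its DMSO call was lost with quantile normalization (0.23, limma adjusted p = 0.0981, over a range of 6.02e-05 to 0.0981 among 16 alternatives).

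Foxa1 differed between the treated lines in 1 condition. With ATRA it was at 7.38, 7.30 and 6.77 log2 in siSCR and 8.07, 7.89 and 7.84 in siPRMT1, without overlap, and rose by 0.79 ± 0.15 (1.73-fold; limma adjusted p = 0.000143). With DMSO it was at 7.38, 6.79 and 7.15 against 7.34, 7.36 and 7.40, with overlap, and was not called (0.26 ± 0.15, limma adjusted p = 0.141). Leaving out siSCR DMSO array 1 turned that into a call (0.40, adjusted p = 0.0391), as did 2 scalings, over a range of 0.0341 to 0.585 among 16 alternatives.

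In all, 6 factors were higher with DMSO and 7 with ATRA, but the background was high. With DMSO 65.9% of all genes were called and 31.3% were called higher, and with ATRA 70.1% and 32.2%. The members' medians were 1.23 and 1.05 log2 against -0.09 and -0.11 for all genes. Centring arrays on all probe sets, an alternative chosen after the data were seen, moved those 2 medians of all genes to 0.02 and 0.03. The share of higher genes among those called was 47.5% with DMSO and 45.9% with ATRA, and ran from 36.9 to 59.7% and from 38.3 to 59.8% with other scalings. Of the 16 fibroblast and feeder markers 8 were lower and 2 higher with DMSO, and 7 lower and 1 higher with ATRA. Over all genes 34.6% were called lower with DMSO and 38% with ATRA.

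**Figure D2:**
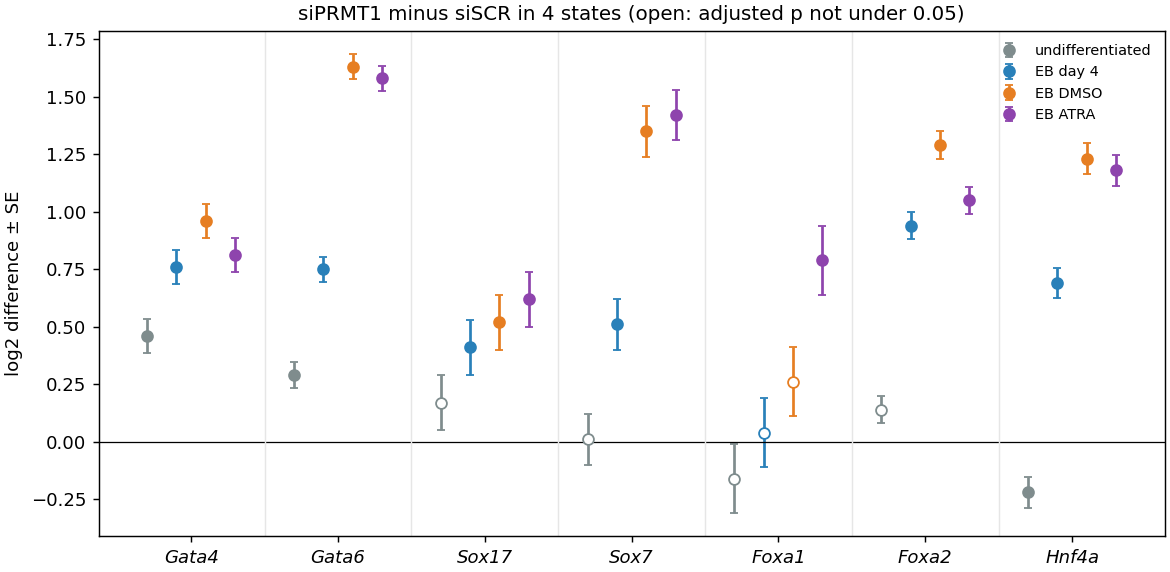
Difference between siPRMT1 and siSCR in log2 units (vertical axis) with its standard error, for each factor in 4 states (colours); filled points were called and open points were not. Gata4 and Gata6 are above 0 in every state, Hnf4a goes from -0.22 in undifferentiated cells to 0.69 at day 4, and Foxa1 is filled only with ATRA, at 0.79.

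Embryoid body formation raised 6 of the factors in the control line and lowered Foxa1. From undifferentiated cells to day 4, siSCR Hnf4a went from between 8.99 and 9.07 log2 to between 10.00 and 10.20, with no overlap. It rose by 1.09 ± 0.067 (2.13-fold; limma adjusted p = 5.44e-11). Gata4 rose by 0.88 ± 0.074, Foxa2 by 0.68 ± 0.059, Sox17 by 0.61 ± 0.12, Sox7 by 0.56 ± 0.11 and Gata6 by 0.24 ± 0.055, with limma adjusted p from 6.66e-09 to 0.00165. Foxa1 was at 7.56, 7.58 and 7.69 in undifferentiated siSCR cells and lower on every day 4 array. Foxa1 fell by 0.54 ± 0.15 (limma adjusted p = 0.00967), a call lost without siSCR day 4 array 3 (-0.47, adjusted p = 0.054, over a range of 2.4e-05 to 0.054 among 17 alternatives). Of all genes 28.2% were called in this step and 14.5% were called higher. The members' median was 0.61 log2 and that of all genes 0.00. The share of higher genes among those called was 51.3%, and 50.7 to 66.1% with other scalings. Fibroblast and feeder markers went down in the same step, 14 of 16 in either line, against 13.7% of all genes called lower in siSCR and 18.4% in siPRMT1.

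The same 6 factors rose in the knockdown line. Hnf4a went from between 8.75 and 8.88 log2 to between 10.73 and 10.87, a rise of 2.00 ± 0.067 (3.99-fold; limma adjusted p = 3.79e-15). Foxa2 went from 7.66, 7.77 and 7.88 to 9.32, 9.22 and 9.22, a rise of 1.48 ± 0.059 (2.79-fold; 5.31e-14). The states were well separated in both genes. Gata4 rose by 1.17 ± 0.074, Sox7 by 1.06 ± 0.11, Sox17 by 0.85 ± 0.12 and Gata6 by 0.70 ± 0.055. Foxa1 was not called (-0.34, limma adjusted p = 0.0814), although 4 of 17 alternatives called it lower. The count of 6 higher stood against 41.4% of all genes called and 23% called higher, with medians of 1.06 log2 for the members and -0.04 for all genes. The median of all genes moved to 0.07 with centring on all probe sets. Among called genes 55.5% were higher, and 49.3 to 75% with other scalings.

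The rise in embryoid bodies was larger in the knockdown line than in the control for 5 of the factors. The difference between the rises was 0.91 ± 0.094 for Hnf4a (limma adjusted p = 7.22e-07), 0.79 ± 0.083 for Foxa2 (7.81e-07), 0.46 ± 0.077 for Gata6 (0.00015), 0.50 ± 0.15 for Sox7 (0.019) and 0.30 ± 0.10 for Gata4 (0.0431), all on the log2 scale. The Sox17 (0.24 ± 0.16) and Foxa1 (0.20 ± 0.22) differences were not called. The Gata4 call was lost under 12 of 23 alternatives (adjusted p 0.000291 to 0.371), including the replicate block (0.30, 0.0568) and 8 of the 12 arrays left out in turn. Those were siSCR undifferentiated 2 and 3, siSCR day 4 arrays 1 and 2, and arrays 1 and 2 of both siPRMT1 groups. The Sox7 call was lost under 4 of 23 (0.000341 to 0.0876), which were quantile normalization, scaling to one SD, and leaving out siSCR day 4 array 1 (0.44, 0.0536) or siPRMT1 undifferentiated array 3 (0.45, 0.0507). Without siSCR day 4 array 1 the count was 3 factors in place of 5. Of all genes 23.8% were called for this difference and 15% were called higher. The medians were 0.46 log2 for the members and -0.02 for all genes. Among called genes 63% were higher, and 41.6 to 78% with other scalings. Of 14 pluripotency genes 1 was higher and 8 were lower for the same difference (median -0.33 log2), with 5 higher and 2 lower in siSCR embryoid body formation and 3 higher and 7 lower in siPRMT1. Their part in the results was not tested.

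With ATRA 3 of the 7 factors were called in siSCR and 4 in siPRMT1, and Gata6 and Hnf4a each moved in the same direction in both lines. Gata6 rose by 0.50 ± 0.055 in siSCR (1.41-fold; limma adjusted p = 1.44e-06) and by 0.45 ± 0.055 in siPRMT1 (1.37-fold; 4.02e-06). Hnf4a was at 9.70, 9.65 and 9.62 log2 with DMSO and 9.28, 9.02 and 9.08 with ATRA in siSCR, and at 10.91, 10.88 and 10.87 against 10.28, 10.28 and 10.35 in siPRMT1. All ATRA arrays were below all DMSO arrays of their line. Hnf4a fell by 0.53 ± 0.067 in siSCR (limma adjusted p = 8.09e-06) and by 0.58 ± 0.067 in siPRMT1 (2.09e-06).

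The remaining ATRA calls were made in 1 line each, though not under every alternative. Foxa2 was also called lower in siSCR with quantile normalization (-0.20, limma adjusted p = 0.0124) and one SD (-0.16, 0.0404), over a range of 0.0124 to 0.636 among 16 alternatives. Sox17 was also called lower in siPRMT1 with only the groups compared (-0.22, limma adjusted p = 0.0227) and with array weights (-0.23, 0.011), over a range of 0.011 to 0.514 among 17. Sox7 and Gata4 were called in neither line in the main fit. In siPRMT1 Sox7 was called higher under 3 of 17 alternatives (limma adjusted p 0.000349 to 0.388 over all of them). Gata4 was called lower there with array weights (-0.15, 0.00418, over a range of 0.00418 to 0.438). In siPRMT1, Foxa1 went from 7.34, 7.36 and 7.40 log2 to 8.07, 7.89 and 7.84, and Foxa2 from 9.27, 9.33 and 9.26 to 8.97, 8.95 and 8.94. These forkhead genes thus went opposite ways, with no overlap. Foxa1 rose by 0.57 ± 0.15 (1.49-fold; limma adjusted p = 0.0152), and Foxa2 fell by 0.33 ± 0.059 (0.000428). The Foxa1 call was lost without siPRMT1 DMSO array 1 (0.56, 0.0536) or siPRMT1 ATRA array 1 (0.50, 0.0788), over a range of 6.37e-07 to 0.0788 among 17 alternatives. In siSCR, Sox17 fell by 0.32 ± 0.12 (limma adjusted p = 0.048), a call lost under 8 of 16 alternatives (0.0136 to 0.267). They include the replicate block (-0.32, 0.0583) and leaving out any siSCR DMSO array (0.157, 0.0602 and 0.0657) or siSCR ATRA array 2 (0.101) or 3 (0.163).

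Between the lines, the ATRA responses of the factors did not differ beyond the threshold. None of the 7 was called for this difference by limma, where 3.24% of all genes were, and 0 were called under each of the 22 alternatives run. Foxa1 and Foxa2, 2 of the 7, had an unadjusted p under 0.05. The largest estimate was for Foxa1, 0.53 ± 0.22 log2 (limma adjusted p = 0.204), and Foxa2 was at -0.25 ± 0.083. In siSCR 1 factor was higher, 2 were lower and 4 were not called, against 23.4% of all genes called, with medians of 0.02 and 0.03 log2. In siPRMT1 2 were higher, 2 lower and 3 not called, against 12% of all genes, with medians of -0.14 and 0.03 log2. The share of higher genes among those called was 47.8% in siSCR and 50.5% in siPRMT1, and ran from 27.4 to 49.2% and from 35.1 to 49.6% with other scalings. Known retinoic acid targets moved at the same time: 11 of 13 measured rose in siSCR and 13 of 13 in siPRMT1. Unlike the factors, 8 of these 13 were called for a larger response in siPRMT1 and 0 for a smaller one (median difference 0.82 log2).

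**Figure D3:**
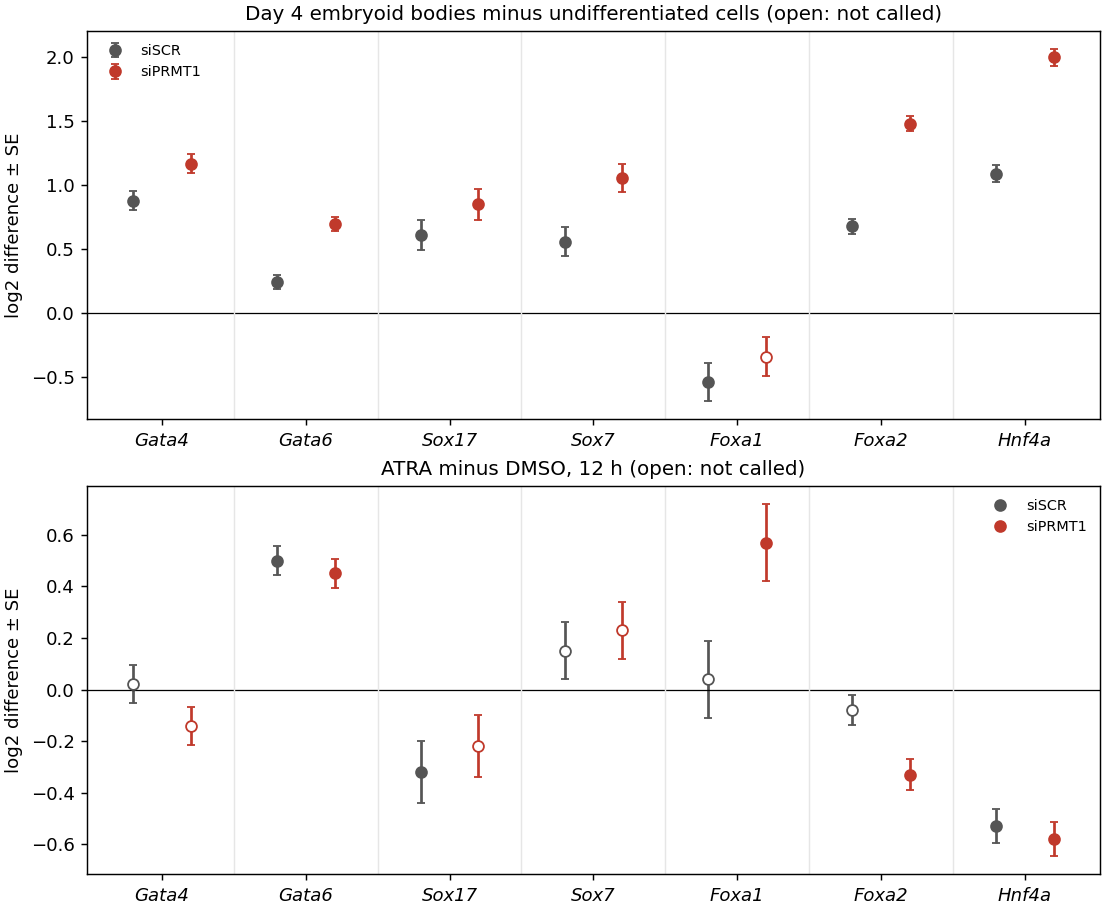
Difference in log2 units with its standard error for each factor, in siSCR (grey) and siPRMT1 (red); above, day 4 embryoid bodies minus undifferentiated cells, and below, ATRA minus DMSO. Filled points were called; 6 factors are filled above 0 in both lines in the upper panel, and in the lower panel Gata6 is above 0 and Hnf4a below 0 in both lines.

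Vehicle was compared with day 4 in each line. In siSCR, Gata6 was lower with DMSO than at day 4 by 0.83 ± 0.055 log2, and Sox7, Hnf4a and Foxa2 were lower too, at differences of -0.77, -0.47 and -0.32 (limma adjusted p from 4.65e-11 to 7.96e-05). Gata4, Sox17 and Foxa1 were not called there, though Gata4 was called higher with arrays scaled to one SD (0.26, limma adjusted p = 0.00852, over a range of 0.00852 to 0.911 among 16 alternatives) and Sox17 with quantile normalization (0.29, 0.0423, over 0.0423 to 0.924). In all 0 factors were higher and 4 lower, but 61.1% of all genes were called in that comparison, which crosses the border between array sets. In siPRMT1 none of the 7 factors was called between DMSO and day 4 by limma, where 0.461% of all genes were, and 1, Gata4, had an unadjusted p under 0.05. The difference between the lines was called for 4 factors, Gata6 (0.88 ± 0.077), Sox7 (0.84 ± 0.15), Hnf4a (0.54 ± 0.094) and Foxa2 (0.36 ± 0.083), against 44.6% of all genes. The share of higher genes among all called was 56.3% for that difference, 50.4% in siSCR and 66.3% in siPRMT1, and with other scalings it ran from 40.8 to 58.8%, from 47.8 to 63.2% and from 76.5 to 89.3%.

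Each factor had its own order of levels over the 8 groups. Gata4 ran from 9.80 (siSCR undifferentiated) through 10.26 (siPRMT1 undifferentiated) to the 3 siSCR embryoid body groups at 10.64 to 10.68, which overlapped, and then to siPRMT1 at 11.44 to 11.60, where day 4 and ATRA overlapped. Gata6 was lowest in siSCR with DMSO (10.30 log2) and highest in siPRMT1 with ATRA (12.38), and in its order only siSCR day 4 (11.13) and siPRMT1 undifferentiated (11.17) overlapped as neighbours. It thus spanned 2.08 log2 units over the group means, with its lowest group among the siSCR arrays that stood apart.

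Hnf4a spanned 2.07 log2 units. With other scalings the span was 1.73 to 1.95 for Gata6 and 1.99 to 2.09 for Hnf4a, so the order of the 2 spans turned. It was lowest in siPRMT1 undifferentiated (8.82), followed by siSCR undifferentiated (9.04) and siSCR ATRA (9.13), which overlapped, then siSCR DMSO (9.66) and siSCR day 4 (10.13). The siPRMT1 embryoid bodies closed the order at 10.31 with ATRA, 10.82 at day 4 and 10.89 with DMSO. No other neighbours overlapped.

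Foxa2 spanned 1.65 log2 units, from 7.63 in siSCR undifferentiated to 9.28 in siPRMT1 with DMSO. Its 4 lowest groups overlapped as neighbours, as did its 2 highest. Sox7 spanned 1.57, and 1.35 to 1.44 with other scalings, with siSCR DMSO as its lowest group too. Its siSCR DMSO, siSCR ATRA and both undifferentiated groups overlapped between 9.14 and 9.36, and then siSCR day 4 was alone at 9.91. Sox17 spanned 1.17, from 8.16 to 9.33, and its 5 lowest groups formed an overlapping run. Foxa1 spanned 0.87, and only its highest group, siPRMT1 with ATRA at 7.94, was apart from its neighbour.

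Set against each other by the root mean square difference of the 8 centred group means, the closest members were Gata4 and Foxa2 (0.19 log2) and Gata6 and Sox7 (0.20). Foxa2 and Hnf4a were at 0.24, as were Gata4 and Sox17 and Sox7 and Foxa2. Foxa1 was at 0.50 to 0.83 from the other members. Over the 6 groups without siSCR DMSO and ATRA the first pair was at 0.13 and the second at 0.19. These are descriptions of group means that share arrays.

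Genes outside the set with the most similar profiles were named for the 6 members that spanned at least 1 log2 unit. Nearest to Gata4 were Egflam, Fhl1 and Tmem184a (0.12 to 0.13 log2), and without the siSCR DMSO and ATRA groups Col4a2, Fabp3 and Col4a1 (0.05 to 0.08). Col4a1 and Col4a2 encode basement membrane collagen. Nearest to Gata6 were Lrrn1, Chn2 and Bcl6b, to Sox17 Plod2, Neu1 and Lpar2, and to Sox7 Cpm, Dsp and Gpc6. Foxa2 had Vps37c, Shtn1 and the laminin gene Lama1, and Hnf4a had Sulf1, Crmp1 and Tent5a. Over the 6 groups Gata6 kept Lrrn1 and Sox17 kept Neu1, and the other 4 members kept none of their 3, so the neighbours turn on which groups are counted.

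Products of extraembryonic endoderm moved with the factors at day 4. Of 20 visceral endoderm genes measured, 14 were higher in siPRMT1 than in siSCR, 0 were lower and 6 were not called. The median was 0.56 log2 against -0.02 for all genes, of which 11.4% were called higher. The apolipoprotein gene Apoa1 rose by 1.70 ± 0.082, the transthyretin gene Ttr by 1.33 ± 0.11 and Cited1, a transcriptional coactivator, by 1.22 ± 0.088, with limma adjusted p of at most 6.59e-08. In undifferentiated cells 3 of the 20 were higher and 17 were not called. The alpha-fetoprotein gene Afp, singled out after its values were seen, was not called at day 4 (0.32 ± 0.15, limma adjusted p = 0.146).

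Of 16 parietal endoderm and basement membrane genes, 12 were higher at day 4 in siPRMT1, 1 was lower and 3 were not called, with a median of 0.62 log2. Plat (tissue plasminogen activator) rose by 1.32 ± 0.078, the parathyroid hormone receptor gene Pth1r by 1.07 ± 0.11 and the activin antagonist Fst by 1.04 ± 0.065, while the keratin gene Krt19 fell by 0.63 ± 0.095. In undifferentiated cells 5 were higher and 4 lower, and Plat (-0.54) and Krt19 (0.66) had the opposite sign to day 4. Of 14 genes listed for definitive endoderm and mesendoderm, 6 were higher at day 4, 1 was lower and 7 were not called, with a median of 0.17 log2. The name of a list does not tie its genes to that tissue alone. Cer1, a secreted inhibitor of Nodal, rose by 1.88 ± 0.18, the homeobox gene Lhx1 by 1.04 ± 0.099 and the Wnt antagonist Frzb by 0.77 ± 0.14.

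Formation of embryoid bodies in the control line raised 13 of the 20 visceral genes and lowered 1. The endocytic receptor genes Lrp2 and Cubn rose by 3.46 ± 0.084 and 2.35 ± 0.095, and Ttr by 3.19 ± 0.11. It raised 11 of the 16 parietal genes and lowered 3, and raised 6 of the 14 genes of the definitive endoderm and mesendoderm list with 8 not called. In siPRMT1 the counts higher were 16, 13 and 10. Over all genes 14.5% were called higher in siSCR and 23% in siPRMT1. The rise was larger in siPRMT1 for 11 of the 20 visceral and 11 of the 16 parietal genes and smaller for 1 of each, by the fitted difference between the lines. For that difference 15% of all genes were called higher.

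With ATRA more visceral and parietal genes fell than rose. In siSCR 6 visceral genes fell and 2 rose, and 7 parietal genes fell and 0 rose. In siPRMT1 8 and 3 fell and 0 rose in either list. Over all genes 12.2% were called lower in siSCR and 5.94% in siPRMT1. With median centring these shares were 18.8% and 8.69%. Ttr fell by 0.39 ± 0.11 in siSCR and by 0.56 ± 0.11 in siPRMT1, in the same direction as Hnf4a. Cer1 and Lhx1 fell by 2.64 ± 0.18 and 1.63 ± 0.099 in siPRMT1, 2 of the 5 genes of the definitive endoderm and mesendoderm list that fell there. In siSCR 3 of these 14 fell.

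Other factors of the endoderm and paralogs of the members were counted as a list. Of 18 measured, 5 were higher at day 4 in siPRMT1, 2 lower and 11 not called, with a median of -0.00 log2 and a median of -0.02 for all genes. The homeobox gene Otx2 rose by 0.87 ± 0.11, and the GATA cofactor gene Zfpm1 and the homeobox gene Prox1 by 0.54 each. The paralogs below were singled out after their values were seen. At day 4 Foxa3 (0.14), Hnf4g (0.12), Sox18 (-0.17), Gata5 (-0.09) and Gata2 (-0.17) were not called. Gata1 (0.32 ± 0.080) and Gata3 (0.36 ± 0.11) were called higher. In siSCR embryoid body formation Foxa3 rose by 0.47 ± 0.082, and Gata2 fell by 0.80 ± 0.076. Otx2 rose by 2.93 ± 0.11 in that step in siSCR and by 3.43 ± 0.11 in siPRMT1, and its ATRA differences were -2.20 ± 0.11 in siSCR and -2.69 ± 0.11 in siPRMT1.

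A list of signals upstream of the factors, with receptors, transducers and feedback genes of their pathways, was mixed. Of 21 genes of FGF, Nodal, BMP and Wnt signalling, 3 were higher, 3 lower and 15 not called at day 4, led by Fgf5 (1.37 ± 0.11) and Bmp2 (0.95 ± 0.16). In undifferentiated cells the counts were also 3, 3 and 15. There Fgf4, the signal that drives primitive endoderm in the blastocyst, was higher by 0.42 ± 0.077, and the Nodal antagonists Lefty1 and Lefty2 differed by -0.54 and -0.52.

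**Figure D4:**
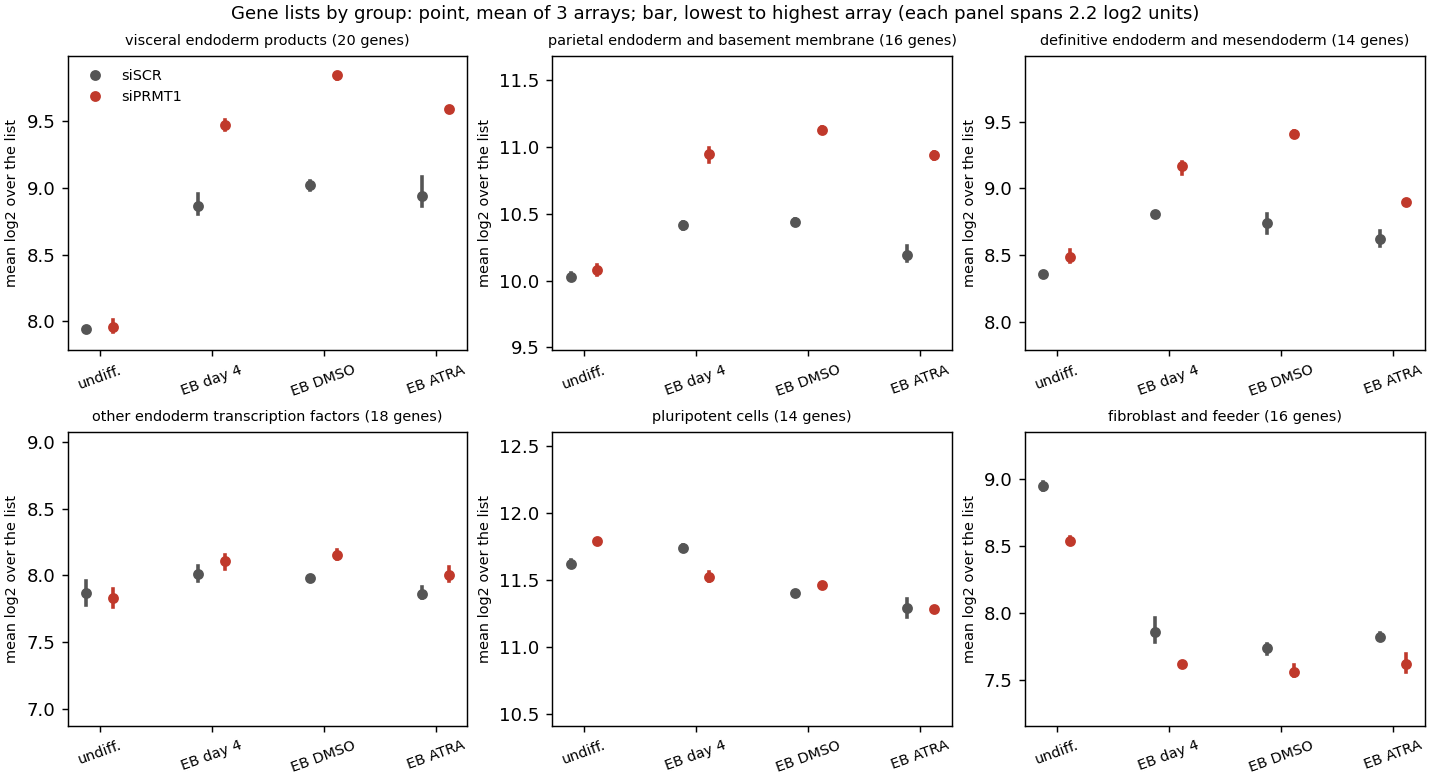
Mean log2 level over the measured genes of 6 lists (vertical axis) by state and line; points are means of 3 arrays and bars run from the lowest to the highest array. The visceral endoderm list goes from 8.86 in siSCR to 9.47 in siPRMT1 at day 4, and the fibroblast list is lower in siPRMT1 in each state.

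Markers of other cells were measured beside the factors. Of 16 markers of fibroblasts and feeder cells, 10 were lower in undifferentiated siPRMT1 cells, 0 higher and 6 not called, and the list's mean was 8.53 to 8.57 log2 on those arrays against 8.92 to 8.98 in siSCR. At day 4, 7 were lower and 0 higher, with list means of 7.61 to 7.63 against 7.78 to 7.96. Of all genes 11.2% were called lower in undifferentiated cells and 7.01% at day 4. With DMSO 8 of the 16 were lower and 2 higher, and with ATRA 7 and 1, against 34.6% and 38% of all genes called lower. Those 2 comparisons cross the border between array sets. The markers also went down with embryoid body formation, and their part in the results was not tested.

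Of 16 genes of heart, blood and vessel mesoderm, where GATA and SOXF factors also act, 3 were higher at day 4, 3 lower and 10 not called, in a comparison where 18.4% of all genes were called. Of 14 pluripotency genes 7 were higher and 2 lower in undifferentiated siPRMT1 cells, and 1 was higher and 5 lower at day 4, with list means of 11.60 to 11.65 log2 in undifferentiated siSCR cells and 11.77 to 11.80 in siPRMT1. Of 12 neuroectoderm genes 1 was higher and 1 lower at day 4, and of 12 trophectoderm genes 2 were higher and 2 lower.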

How the data were processed

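Total RNA of 24 samples was hybridised to Affymetrix whole-transcript arrays, with biotinylated cDNA made from total RNA, per the labels' protocols. The values deposited by the authors are log2 expression per probe set, where the base was read from their range (2.14 to 14.5); the sources used here do not give how probes were summarised and normalized. The number of arrays limits the precision, and no detection calls were used.

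Of 35556 probe sets, 21789 were annotated to 1 symbol, 1621 to several and 12146 to none. Sets with 1 symbol were tested, with the brightest set kept for each of the 999 genes with more than 1, which left 19938 genes. No array was left out, and no filter on low values was set; all 7 members stayed when the dimmest 25% of genes were dropped.

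One limma fit (version 3.58.1, R 4.3.3; lmFit, contrasts.fit, eBayes) of 8 group means used all 24 arrays and 16 residual degrees of freedom. It gave 10 comparisons of groups and 3 differences between them, with p-values adjusted by Benjamini-Hochberg over all genes. The fit was tested on simulated data.

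The 7 members and the gene lists were chosen with earlier results of these data known. All members are named. Of a list, up to 3 called genes with the largest change in each direction could be named, and for members that spanned at least 1 log2 unit the 3 nearest genes. Each list is counted without the 7. Some listed genes were not analysed here.

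Alternatives were a replicate block, only the groups compared, quantile normalization, median centring, scaling to one SD, dropping dim genes, the mean of a gene's sets, trend and robust variance, array weights, omitting the 6 siSCR arrays that had DMSO or ATRA, and leaving out each array in turn. Median centring on all probe sets was added after the data were seen. Whether equal replicate numbers pair the arrays was not settled. Of 30 correlations of their deviations 5 were over 0.1 (-0.502 to 0.508), and arrays with unequal numbers were not compared. The highest was for replicate 2 in siSCR embryoid body formation.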

Additional observations from a re-analysis of the deposited data

Results flagged for a closer look

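The effect of embryoid body formation differed between the lines by the fitted difference itself for Gata4 (0.30), Gata6 (0.46), Sox7 (0.50), Foxa2 (0.79) and Hnf4a (0.91), each in log2 units with the larger rise in siPRMT1. This call was lost for Gata4 under 12 of 23 alternatives and for Sox7 under 4 of 23. Over all genes 23.8% were called for this difference and 15% were called higher.

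The difference between vehicle and day 4 differed between the lines for Gata6 (0.88), Sox7 (0.84), Hnf4a (0.54) and Foxa2 (0.36). Over all genes 44.6% were called for it and 25.1% were called higher. In these 4 genes the siSCR line was lower with DMSO than at day 4 and the siPRMT1 line was not called. This comparison crosses the border between the 6 siSCR arrays treated with DMSO or ATRA and the other 18.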

How the results depend on the processing

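A value counted as reversed only where its sign changed and either fit called it. Values called in neither fit could change sign and still count as kept. Over the 24 settings that each left out 1 array, 644 of 672 values kept their side of the threshold. There 25 lost a call, 3 gained one and 0 reversed. Over the 11 other alternatives 926 of 959 kept theirs, 13 lost a call, 19 gained one and 1 reversed. That was Gata4 in siSCR between DMSO and day 4, at 0.26 log2 (limma adjusted p = 0.00852) with arrays scaled to one SD. The count of members called in undifferentiated cells was 5 with array weights. For the difference between the lines in embryoid body formation it was 3 with quantile normalization, 3 with one SD, and 3 to 5 with each array left out. For ATRA in siPRMT1 it was 7 with array weights. The cause was not tested. With a replicate block the factors called were 3 in undifferentiated cells, 6 at day 4 and 4 for the difference in embryoid body formation; it changed the calls of Gata4 in that difference and of Sox17 with ATRA in siSCR, and no other call of a member. The count of all genes called also moved by over 1.5 times with array weights: 7218 in undifferentiated cells, 6106 at day 4, 8969 in siSCR embryoid body formation, 7688 for the difference, 1567 and 7640 for ATRA in siSCR and siPRMT1, and 2536 for vehicle in siPRMT1, where it was 29 to 36 with each array left out, 47 with centring on all probe sets, 56 with one SD, 145 with trend and robust variance and 286 without the 6 siSCR arrays. It was 544 for ATRA in siSCR with only the groups compared. For the difference in ATRA response it was 135 in that fit, 405 with centring on all probe sets and 304 to 897 with each array left out. With 3 arrays a group no exact permutation test can go below 0.1.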
